A study of Rattus norvegicus with 17 samples.

Results

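The UVB response of the meibomian gland (MG) in P1.hMR rats was set against that in WT rats gene by gene, and the quantity described is the difference between the 2 responses. For each gene, the change from control to UVB in WT rats was subtracted from the same change in P1.hMR rats, on the log2(TPM + 1) scale, where TPM is the share of a gene's transcripts among all transcripts of a sample, scaled to a fixed total. Genes entered when they reached 1 TPM in at least 3 of the 17 rats, which kept 13105 of the 17251 genes listed. A positive difference means that UVB raised a gene further, or lowered it less, in P1.hMR than in WT rats, and a negative difference means the reverse.

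All rats were female Sprague-Dawley rats aged 10 to 12 weeks. P1.hMR rats carry the human mineralocorticoid receptor (MR) gene NR3C2 under its own proximal P1 promoter, which is active in MR-expressing tissues at large and not in the MG alone, and they keep the rat gene Nr3c2. The 4 Control WT and 5 Control P1.hMR rats were not irradiated, while the eyelids of the 3 UVB WT and 5 UVB P1.hMR rats were exposed to UVB daily for 5 days before the MGs were dissected. The methods count eyes rather than rats for the UVB groups. The study states that both eyes of an animal, where both were analysed, were pooled into a single sample.

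MR is a steroid receptor that binds aldosterone and glucocorticoids, enters the nucleus and changes the transcription of its target genes, among them subunits of the epithelial sodium channel. The MG is a modified sebaceous gland of the eyelid, whose meibocytes fill with lipid and disintegrate to release meibum through a duct lined by keratinising epithelium. UVB damages DNA and sets off inflammation, proliferation and keratinisation in epithelia.

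The human NR3C2 transgene was listed at 0 TPM in all 7 WT rats and lay between 5.31 and 9.31 TPM in the 10 P1.hMR rats. Between 12372 and 12737 genes per rat reached 1 TPM, and rats of a group correlated with r between 0.986 and 0.993 across genes. All 12 meibocyte markers passed the filter, with a summed level between 40077 and 55827 TPM per rat. TPM keeps no depth, so the precision rests on the spread between rats alone. The 3 UVB WT rats were not alike, and this bears on most of the values below. At 3 genes, UVB WT rats 1 and 2 lay at least 1 log2 unit away from all the other 15 rats, UVB WT rat 3 included, and no other pair of UVB WT rats did so at any gene. Pairs within the other groups were not searched. Single rats of other groups also stood apart, and UVB P1.hMR rat 2 lay that far above all others at 3 genes.

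No gene was called as differing in its UVB response between genotypes (adjusted p under 0.05 and absolute log2 difference of at least 0.5, 0.0% of 13105 genes), and the smallest adjusted p was 0.306 (limma with Benjamini-Hochberg adjustment). Before adjustment, 907 genes (6.92%) had a limma p under 0.05, of which 335 (2.56%) had the larger and 572 (4.36%) the smaller response in P1.hMR rats. The balance between these 2 numbers moved with the scaling, from 36.9% positive as deposited to 43.9% after quantile normalization and 48.7% (438 of 899 genes) after median-of-ratios scaling. Over all tested genes, the difference had a median of -0.017 and an SD of 0.21, and 45.0% of genes were positive. Its 95% interval lay within 1 log2 unit of 0 for 12425 genes (94.8%) and within 0.5 for 9230 (70.4%). A difference of at least 1 in size was found at 55 genes, 7 of which were positive and 21 negative with p under 0.05. These 55 genes were weakly expressed, with a median level of 2.28 against 4.06 over all genes on the log2(TPM + 1) scale.

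**Figure D1:**
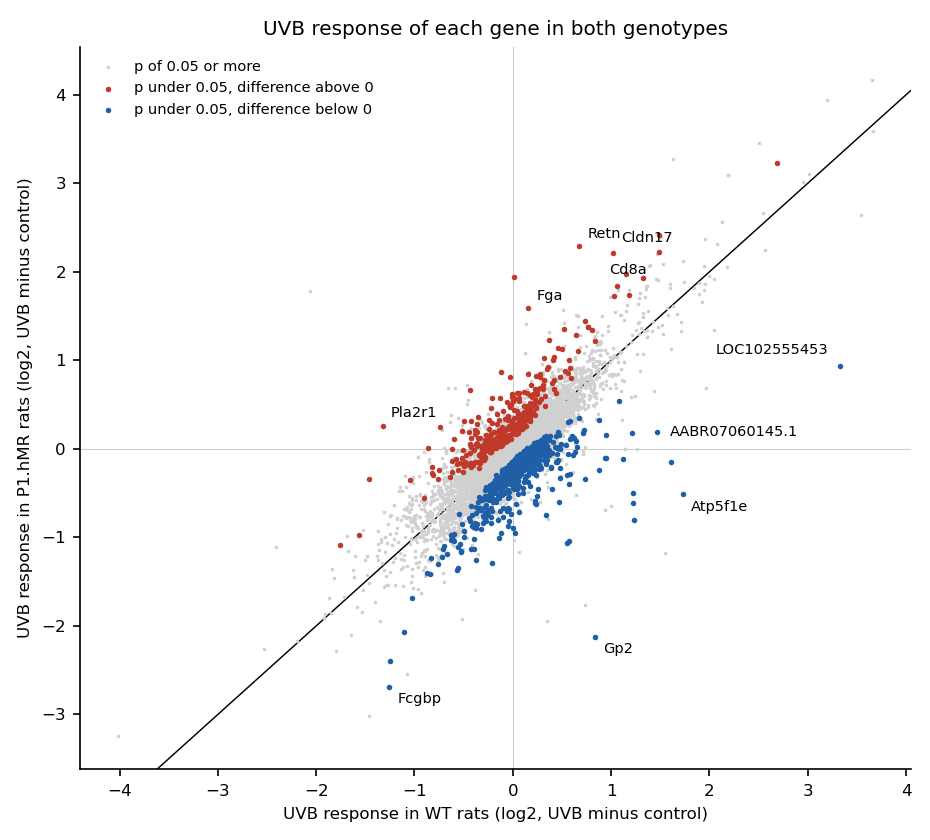
UVB response of each of the 13105 genes in WT rats (x axis) and in P1.hMR rats (y axis), both as log2 UVB minus control. Points on the black diagonal responded alike, red points above it are the 335 genes and blue points below it the 572 genes with an unadjusted limma p under 0.05, and most genes lie close to the diagonal.

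The 335 genes with the larger response in P1.hMR rats were of 3 kinds. Means were higher after UVB in both genotypes for 152 of them, more so in P1.hMR rats, and 59 had lower means after UVB in both genotypes, less so in P1.hMR rats. The other 124 had a higher mean after UVB in P1.hMR rats and a lower one in WT rats. Among the 572 genes with the smaller response, 68 had higher means after UVB in both genotypes, 237 had lower means in both, and 267 had a lower mean after UVB in P1.hMR rats and a higher one in WT rats. These counts describe signs of group means, and the opposite signs rest for many genes on responses close to 0.

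The lead among larger responses in P1.hMR rats belonged to genes of diverse function. Adpgk, a glucokinase that uses ADP in place of ATP, was at 52.6, 52.0, 50.8 and 46.0 TPM in Control WT and at 53.1, 48.2, 52.3, 42.7 and 45.7 TPM in Control P1.hMR rats. After UVB it was at 47.0, 48.2 and 50.4 TPM in WT and at 60.3, 62.4, 66.3, 63.4 and 60.8 TPM in P1.hMR rats. All 5 UVB P1.hMR rats thus lay above the 12 other rats, while the 3 UVB WT rats lay among the controls. The difference of responses was 0.42 (95% interval 0.23 to 0.61), with p = 0.000209 and adjusted p = 0.457 in limma and p = 0.0051 in a two-sided exact permutation test that exchanged genotype labels among rats of the same treatment.

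Ttpa encodes the transfer protein for alpha-tocopherol, the main form of vitamin E. It was at 0.93, 1.00, 1.02 and 0.76 TPM in Control WT and at 0.79, 0.67, 1.07, 0.67 and 0.51 TPM in Control P1.hMR rats. Under UVB, it was at 0.90, 1.31 and 1.25 TPM in WT and at 1.67, 2.31, 2.16, 2.41 and 2.08 TPM in P1.hMR rats, again without overlap. Its difference was 0.69 (95% interval 0.36 to 1.02, limma adjusted p = 0.563).

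Cldn17, a claudin of tight junctions, responded to UVB in both genotypes. Control levels were 4.98, 3.25, 5.97 and 5.54 TPM in WT and 4.09, 2.75, 5.20, 4.31 and 3.36 TPM in P1.hMR rats. After UVB they were 8.48, 9.71 and 15.4 TPM in WT and 19.1, 17.2, 18.0, 27.7 and 28.9 TPM in P1.hMR rats. WT rats had a log2 response of 1.02 against 2.22 for P1.hMR rats, giving a difference of 1.2 (95% interval 0.56 to 1.83, limma adjusted p = 0.704).

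Cd8a, a coreceptor of cytotoxic T cells, was between 0.18 and 0.36 TPM in Control WT and between 0.30 and 0.64 TPM in Control P1.hMR rats. It was at 2.06, 1.08 and 2.20 TPM in UVB WT and at 3.92, 3.07, 4.32, 4.82 and 4.34 TPM in UVB P1.hMR rats, a difference of 0.77 (95% interval 0.36 to 1.18, limma adjusted p = 0.704). Of the 33 T and cytotoxic lymphocyte genes listed, 7 passed the filter, and Cd8a was the 1 with p under 0.05. A larger response at p under 0.05 was found at 2.56% of all tested genes. Cd3e and Cd3g, parts of the T cell receptor complex, had differences of 0.07 and 0.42 with unadjusted limma p of 0.817 and 0.328. More T cells and more Cd8a RNA per cell cannot be told apart in RNA of whole tissue.

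Slurp1, a secreted protein of the epidermis, was between 7.0 and 11.8 TPM in Control WT and between 4.57 and 8.35 TPM in Control P1.hMR rats. It was at 9.14, 8.27 and 8.55 TPM in UVB WT and between 11.2 and 13.7 TPM in UVB P1.hMR rats, a difference of 0.84. Lcp1, an actin-bundling protein of leukocytes, differed by 0.53, Ppwd1, a peptidyl-prolyl isomerase, by 0.34, Cerk, the ceramide kinase, by 0.30, and Uchl3, a deubiquitinase, by 0.28. The single UVB rats of both genotypes did not overlap at any of these 5 genes, which were picked for small p-values, a choice that favours separation. Such separation upwards, with each rat taken against the mean of its own controls, was found at 533 of all tested genes (4.07%), and separation downwards at 880 (6.71%).

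The largest positive differences among genes with p under 0.05 came from genes that varied strongly between rats. The top value was 1.93 (95% interval 0.15 to 3.72) at ENSRNOG00000061622, a gene model without a name. It was listed at 0 in 5 of the 9 controls and in UVB WT rats 1 and 2, at 4.39 TPM in UVB WT rat 3 and at 2.52, 5.55, 8.36, 3.07 and 8.96 TPM in UVB P1.hMR rats. UVB WT rat 3 thus lay within the P1.hMR range. Retn, the hormone resistin, was between 0.66 and 3.97 TPM in all controls. It was at 1.86, 1.33 and 10.5 TPM in UVB WT and at 11.7, 8.38, 24.98, 13.9 and 11.1 TPM in UVB P1.hMR rats, a difference of 1.61 with a 95% interval of 0.26 to 2.97. Here too UVB WT rat 3 lay within the P1.hMR range, and rats 1 and 2 lay within that of the controls. Fga, the fibrinogen alpha chain, was at 0.10 TPM or less in every control. Its UVB levels were 0.06, 0.10 and 0.26 TPM in WT and 0.27, 0.99, 6.89, 1.92 and 3.77 TPM in P1.hMR rats, a difference of 1.43 (95% interval 0.33 to 2.53). Fga reached 1 TPM in UVB P1.hMR rats only. It thus passed the filter solely through the group in which it was high, so its difference is favoured by the filter.

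**Figure D2:**
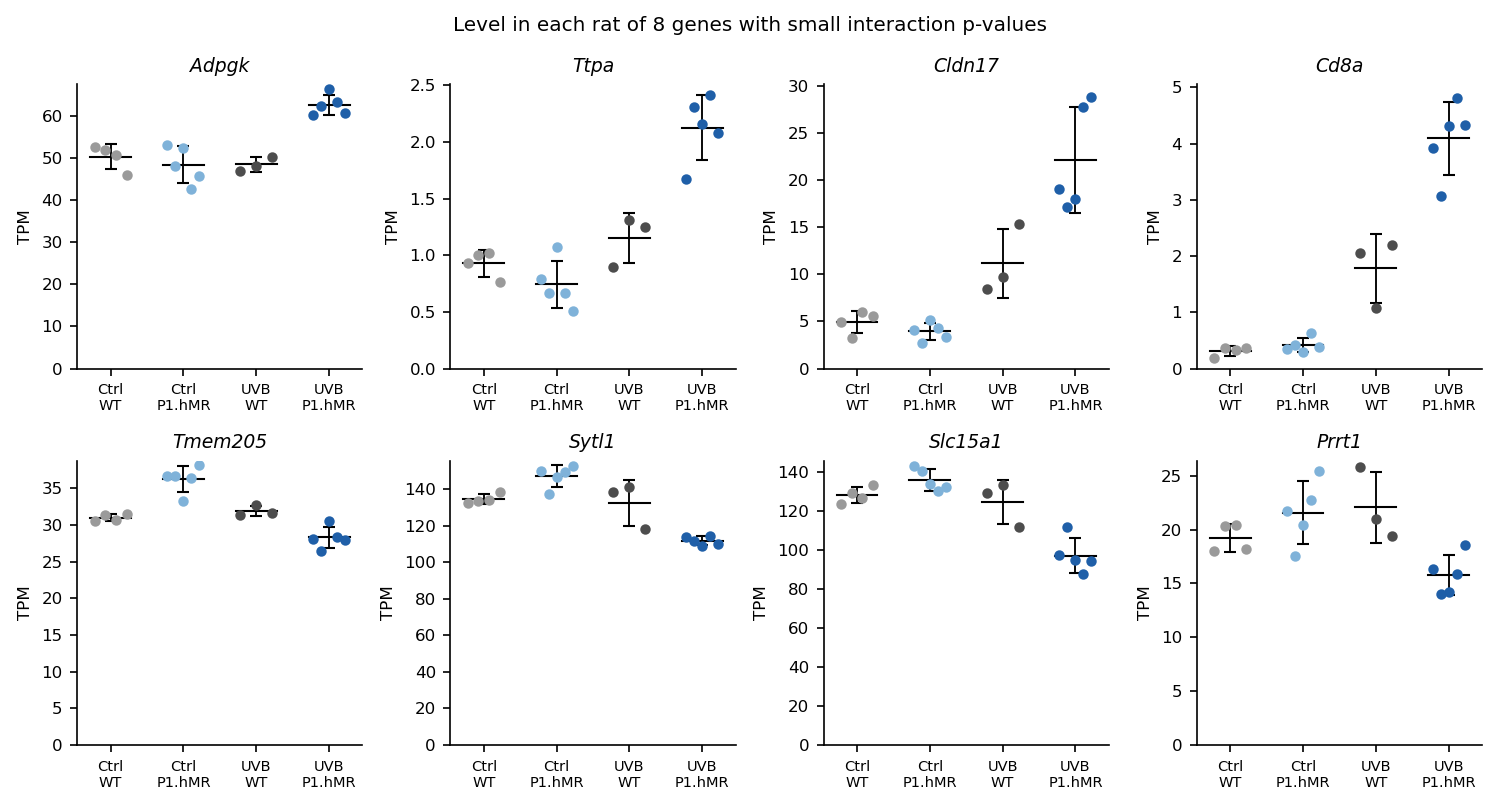
Level in TPM (y axis) of 8 genes in each rat of the 4 groups (x axis), with 1 point per rat, the mean as a horizontal line and the SD as a bar. In the upper row the UVB P1.hMR rats lie above the UVB WT rats, and in the lower row below them.

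Among smaller responses in P1.hMR rats, Tmem205, a transmembrane protein, had the smallest p of all genes. Its levels were 30.6, 31.3, 30.7 and 31.5 TPM in Control WT and 36.8, 36.8, 33.3, 36.4 and 38.2 TPM in Control P1.hMR rats. After UVB they were 31.4, 32.7 and 31.7 TPM in WT and 28.1, 26.5, 30.6, 28.4 and 28.03 TPM in P1.hMR rats. P1.hMR rats thus lay above WT rats without UVB and below them with UVB, and WT rats differed by 0.04 between treatments. The difference of responses was -0.39 (95% interval -0.53 to -0.25), with an unadjusted limma p of 2.37e-05, an adjusted p of 0.306 and p = 0.000283 in the exact permutation test, whose smallest possible p was 0.000142.

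Sytl1, which tethers secretory vesicles through Rab27, followed the same course. It was between 132.6 and 138.6 TPM in Control WT and between 137.5 and 152.9 TPM in Control P1.hMR rats. UVB levels were 138.3, 141.1 and 118.3 TPM in WT and 113.8, 111.5, 108.9, 114.5 and 110.1 TPM in P1.hMR rats, a difference of -0.37 (95% interval -0.51 to -0.22). UVB WT rat 3 lay nearer to the UVB P1.hMR rats than to the other 2 UVB WT rats.

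Slc15a1, the proton-coupled transporter of small peptides, was between 123.4 and 133.3 TPM in Control WT and between 130.0 and 142.7 TPM in Control P1.hMR rats. It was at 128.9, 133.3 and 111.8 TPM in UVB WT and at 97.1, 111.6, 94.8, 87.5 and 94.3 TPM in UVB P1.hMR rats, a difference of -0.44 (95% interval -0.64 to -0.24). Prrt1, a membrane protein associated with glutamate receptors, differed by -0.60 and Dnajb3, a co-chaperone of Hsp70, by -0.60. Smaller differences were those of Hscb, a co-chaperone of iron-sulfur cluster assembly (-0.34), Chmp6, a subunit of the ESCRT-III membrane remodelling complex (-0.31), and Ppp1r37, a regulator of protein phosphatase 1 (-0.23). Camta1, a calmodulin-binding transcription activator, had a log2 response of 0.23 in WT rats against -0.61 in P1.hMR rats, a difference of -0.84. UVB rats of the 2 genotypes did not overlap in their responses at any of these 7 genes, against 6.71% of all tested genes separated downwards. The 7 were picked for small p-values, which favours such separation. In level, Camta1 did overlap, with UVB WT rat 2 at 5.13 TPM and the UVB P1.hMR rats at 3.87 to 5.93 TPM.

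Of the negative differences beyond 1 log2 unit, several were carried by gene models whose reads may be shared with near copies elsewhere. Atp5f1e, the epsilon subunit of ATP synthase, was at 24.4, 25.4, 9.13 and 21.5 TPM in Control WT and at 68.6, 34.3, 53.5, 76.4 and 46.0 TPM in Control P1.hMR rats. Under UVB it was at 71.6, 42.9 and 86.5 TPM in WT and at 42.5, 48.1, 34.1, 13.1 and 78.4 TPM in P1.hMR rats, so that the Control WT rats were the low group. The difference was -2.24 (95% interval -3.51 to -0.97). Most other subunits of oxidative phosphorylation shared this direction but not this size, with 32 of 38 genes negative and a median difference of -0.059. Of all tested genes, 45.0% were positive. The most negative of them was Atp5me (-0.43), and Ndufs7 (-0.22) and Uqcrc1 (-0.17) had p under 0.05. LOC102555453, annotated as similar to ribosomal protein L12, took separate levels in single rats of 3 groups. It was at 33.2 to 41.1 TPM in the 4 Control WT, at 39.4, 320.9, 311.1, 294.7 and 36.5 TPM in Control P1.hMR, at 465.95, 483.7 and 247.9 TPM in UVB WT, and at 502.6, 38.2, 470.3, 492.1 and 247.8 TPM in UVB P1.hMR rats. The difference was -2.40, with p = 0.0694 in the exact permutation test. AABR07060145.1, a gene model without a name, was listed at 0 in every control, at 1.46, 1.19 and 2.94 TPM in UVB WT, and at 0, 0.18, 0, 0 and 0.63 TPM in UVB P1.hMR rats. This gene model passed the filter solely through the UVB WT rats, the group in which it was high.

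Gp2, a glycoprotein of secretory granules, had the most negative difference with p under 0.05, at -2.96 (95% interval -5.48 to -0.44). It was at 2.12, 8.12, 14.9 and 24.9 TPM in Control WT and at 22.9, 32.7, 21.6, 123.9 and 104.2 TPM in Control P1.hMR rats. UVB levels were 53.2, 9.44 and 10.4 TPM in WT and 27.5, 3.74, 4.72, 40.1 and 3.85 TPM in P1.hMR rats. Control P1.hMR rats 4 and 5 were the highest of all 17 rats, and without them the difference was -2.11. Over all genes, leaving out these 2 rats gave 291 larger and 320 smaller responses at p under 0.05. Of the 7 goblet cell and mucin genes that passed the filter, none had a larger and 3 had a smaller response in P1.hMR rats at p under 0.05, namely Spdef, a transcription factor of goblet cells (-1.07), Fcgbp, a mucus protein (-1.43), and Agr2, a mucin-folding enzyme (-1.72). A smaller response at p under 0.05 was found at 4.36% of all tested genes. Spdef was at 2.95 and 2.73 TPM in Control P1.hMR rats 4 and 5 and at 1.26 TPM or less in the 7 other controls. The summed level of the goblet cell list is weighted towards its most abundant members. It ran from 4005 to 5462 TPM in Control WT and 4527 to 5296 in Control P1.hMR rats. With UVB it ran from 4915 to 6411 in WT and 5089 to 6963 in P1.hMR rats. The mean log2(TPM + 1) of the 7 tested members did not rise, at 5.49 in Control WT and 5.32 in UVB WT rats. In P1.hMR rats it was 5.87 without and 5.06 with UVB (SD 0.25 to 0.43 over the 4 groups). The part of this list in the difference was not tested.

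Which genes came close to the threshold depended on the 3 UVB WT rats. LOC100360791, a gene model for translationally controlled tumor protein, was at 138.4 and 150.4 TPM in UVB WT rats 1 and 2, at 34.5 TPM in UVB WT rat 3, and between 35.2 and 45.8 TPM in all the other rats. Pla2r1, a receptor for secreted phospholipases A2, was at 7.0 and 5.08 TPM in UVB WT rats 1 and 2, at 22.8 TPM in rat 3 and between 21.2 and 32.3 TPM elsewhere. RGD1565472 was listed at 0 in UVB WT rats 1 and 2, at 13.3 TPM in rat 3, and between 3.05 and 19.1 TPM elsewhere. At these genes it was thus rats 1 and 2 that left the range of all other groups.

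At a further set of genes it was UVB WT rat 3 that resembled the UVB P1.hMR rats, while rats 1 and 2 lay nearer to the controls. Cers3, the ceramide synthase of very long acyl chains in the skin barrier, was at 12.4 and 13.4 TPM in rats 1 and 2 and at 24.6 TPM in rat 3. Controls lay between 8.01 and 12.6 TPM and UVB P1.hMR rats between 22.2 and 24.3 TPM. Ddhd1, a phospholipase A1, was at 15.3, 13.8 and 34.8 TPM in the UVB WT rats, at 35.9 to 47.4 TPM in UVB P1.hMR rats and at 13.2 to 19.9 TPM in controls. Sptlc3, a subunit of serine palmitoyltransferase, which starts sphingolipid synthesis, was at 3.65, 3.74 and 9.18 TPM in the UVB WT rats against 6.23 to 8.90 TPM in UVB P1.hMR rats. Slc36a2, a proton-coupled amino acid transporter, ran the other way, at 4.78, 6.14 and 1.31 TPM in UVB WT against 1.43 to 1.92 TPM in UVB P1.hMR rats.

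Without UVB WT rat 3, 8 genes were called, and 1426 had p under 0.05, 576 with a larger and 850 with a smaller response in P1.hMR rats. The called genes were Cers3 (0.98), Ddhd1 (1.26), Sptlc3 (0.94), Pla2r1 (2.18) and RGD1565472 (2.58) with a larger response in P1.hMR rats, and LOC100360791 (-1.92), Slc36a2 (-1.46) and Slc15a1 (-0.52) with a smaller one, with limma adjusted p between 1.34e-08 and 0.0434. Without UVB WT rats 1 and 2, which leaves 1 UVB WT rat assumed to vary like the other groups, no gene was called and 328 genes had p under 0.05 in limma, 133 larger and 195 smaller. Without Control WT rat 4, Lin37, a subunit of the DREAM cell cycle complex, was called with a difference of -0.79 (limma adjusted p = 0.0473). Lin37 was at 13.2, 12.0 and 13.2 TPM in Control WT rats 1 to 3, at 25.4 TPM in rat 4, and between 20.8 and 28.8 TPM in all other rats. Leaving out any other single rat gave no called gene and between 615 and 973 genes with p under 0.05. What set the UVB WT rats apart from each other was not tested.

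**Figure D3:**
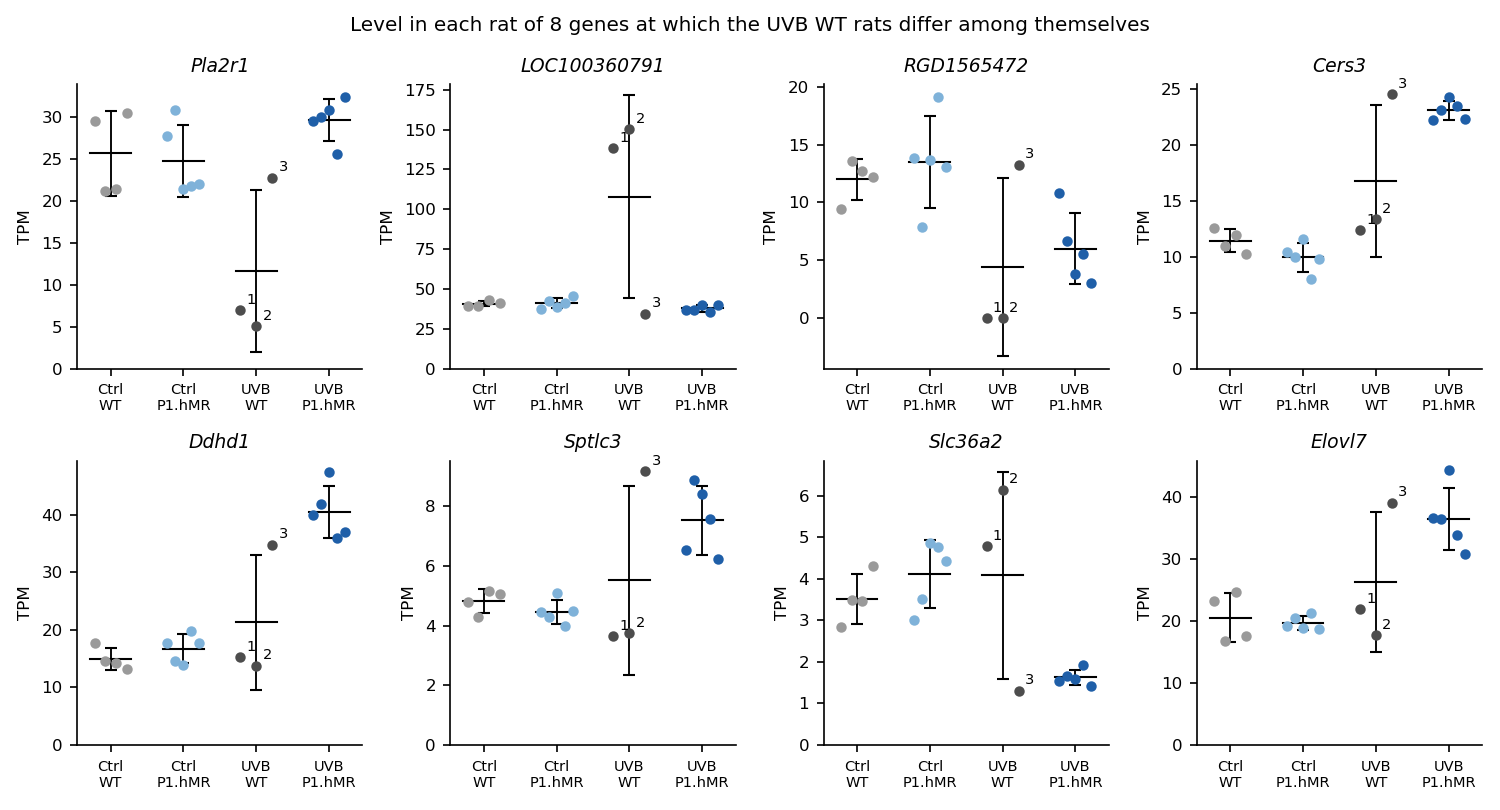
Level in TPM (y axis) of 8 genes in each rat of the 4 groups (x axis), with the UVB WT rats numbered 1 to 3, the mean as a line and the SD as a bar. Rats 1 and 2 lie together and apart from rat 3 at each gene shown, outside all other groups at Pla2r1 and LOC100360791, and near the controls at Cers3, Ddhd1 and Sptlc3.

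**Figure D4:**
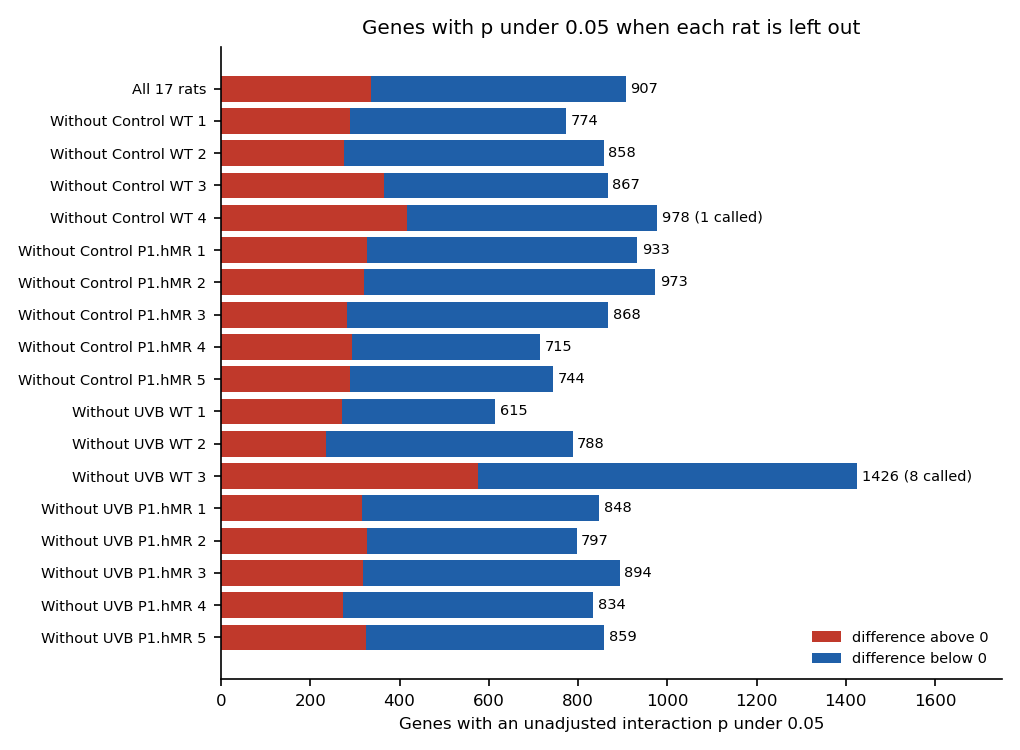
Number of genes with an unadjusted limma p under 0.05 (x axis) when each rat in turn is left out (rows), split into larger (red) and smaller (blue) responses in P1.hMR rats. The number runs from 615 without UVB WT 1 to 1426 without UVB WT 3, against 907 with all 17 rats.

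Classic targets of MR and of the related glucocorticoid receptor had a median difference close to that of all genes. Of 24 such genes tested, 2 had a larger and none a smaller response in P1.hMR rats at p under 0.05, and their median difference was 0.015. The shares over all tested genes were 2.56% larger and 4.36% smaller. List counts near these shares, here and below, do not mark a list out. Scnn1a, the alpha subunit of the epithelial sodium channel, was at 12.6, 7.15 and 15.0 TPM in UVB WT and at 13.5, 14.4, 15.3, 17.4 and 18.7 TPM in UVB P1.hMR rats, against 11.7 to 14.8 TPM in controls. Its difference was 0.50 (95% interval 0.04 to 0.95), and UVB WT rat 2 was the lowest of all 17 rats, and without it the difference was 0.21. Mt2A, a metallothionein that binds zinc and belongs to a family of near copies, was at 366.8, 355.1 and 372.2 TPM in UVB WT and at 379.5, 351.2, 638.0, 455.0 and 619.8 TPM in UVB P1.hMR rats, a difference of 0.61. Sgk1, a kinase that raises sodium channel activity, differed by -0.04 and Fkbp5, a co-chaperone of steroid receptors, by 0.67, with unadjusted limma p of 0.805 and 0.327.

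For the receptor genes, the intervals of the difference all held 0. Rat Nr3c2, whose reads may be split with those of the human transgene, differed by 0.34 (95% interval -0.30 to 0.98), and by 0.094 without Control WT rat 1, 0.56 without UVB WT rat 2 and 0.19 without UVB WT rat 3. The human NR3C2 transgene, at 0 in all WT rats, differed by -0.29 (95% interval -0.67 to 0.08), a value equal to its UVB response in P1.hMR rats. This interval also carries the spread that the model assumes for WT rats. Taken alone, the P1.hMR response had an SE of 0.11 and a limma adjusted p of 0.0479. The transgene was at 6.77 to 9.31 TPM in Control P1.hMR and at 5.31 to 8.93 TPM in UVB P1.hMR rats. Nr3c1, the glucocorticoid receptor, differed by 0.07 (95% interval -0.11 to 0.24), and by 0.023 to 0.090 with single rats left out. S100a9, an alarmin of neutrophils and stressed keratinocytes, was at 397.9, 549.9 and 439.8 TPM in UVB WT and at 413.2, 451.7, 586.8, 528.6 and 788.2 TPM in UVB P1.hMR rats. Its difference was 0.15 (95% interval -0.31 to 0.60, p = 0.609 in the exact permutation test). With single rats left out it ran from 0.0090 without UVB P1.hMR rat 5 to 0.28 without UVB WT rat 2.

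Most genes of keratinisation had positive differences, against 45.0% of all tested genes, and few of them had p under 0.05. Among 25 cornified envelope genes, 2 had a larger response at p under 0.05, Sprr3 (0.73) and the lipid transporter Abca12 (0.53), and 1 a smaller one, Lce1f (-0.78), and 19 were positive with a median of 0.16. Sprr3 was at 405.7, 315.6 and 556.6 TPM in UVB WT and at 522.7, 481.4, 596.2, 770.7 and 759.9 TPM in UVB P1.hMR rats, and UVB WT rat 3 lay within the P1.hMR range. A list of stress and alarm genes held Krt17, S100 proteins, interleukin-1 and interleukin-36 family genes, Lcn2, Defb4, Slpi and Serpinb2. Of its 19 tested members, 15 were positive with a median of 0.22, and the alarmin S100a7a (0.70) and the cytokine Il1b (0.83) had p under 0.05. Il1b was at 4.73, 2.29 and 2.29 TPM in UVB WT and between 3.22 and 10.2 TPM in UVB P1.hMR rats, which overlapped. Its p in the exact permutation test was 0.125. Lcn2 had the most negative difference of the list, at -0.90 with an SE of 1.10. Among 10 kallikreins, the proteases that shed corneocytes, 9 were positive with a median of 0.31, and Klk13 (0.56) had p under 0.05. The median over cornified envelope genes turned to -0.18 and that over kallikreins to -0.092 without UVB WT rats 1 and 2, whereas that of the stress and alarm genes stayed between 0.099 and 0.27 in every setting tried. These families hold near copies between which reads may be split.

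Hair shaft and pigment genes were positive throughout, against 45.0% of all tested genes, without a member at p under 0.05. All 22 tested genes of the hair shaft and inner root sheath, which are keratins beside Padi3, Tchh, S100a3 and Crnn, had positive differences, with a median of 0.31 and the top value of 0.72 at Krt83. Their summed level ran from 1386 to 1797 TPM in Control WT, 1087 to 2205 in Control P1.hMR, 518.3 to 1372 in UVB WT and 726.4 to 1146 in UVB P1.hMR rats, and without UVB WT rats 1 and 2 the median was -0.41. All 9 melanocyte genes were positive too, with a median of 0.28. Pmel, a protein of melanosome fibrils, had a log2 response of -0.76 in WT rats against -0.33 in P1.hMR rats. For Tyrp1, an enzyme of melanin synthesis, the values were -0.53 and -0.02. The summed melanocyte level was 59.4 to 70.0 TPM in UVB WT and 79.9 to 139.1 TPM in UVB P1.hMR rats, which did not overlap, against 80.8 to 145.4 TPM in controls. Taken gene by gene, the responses of single UVB rats were separated upwards at 3 of the 9, against 4.07% of all tested genes. The median over melanocyte genes stayed between 0.16 and 0.39 in every setting. Genes of a block that vary together between rats are not separate observations.

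Lipid genes of meibocytes had a median difference near 0. Over 40 meibum lipid genes, the median difference was 0.060, with Elovl7, a fatty acid elongase (0.56), and Far1, which makes fatty alcohols for wax esters (0.28), larger and Dgat2, an enzyme of triglyceride synthesis (-0.37), smaller at p under 0.05. Elovl7 was at 22, 17.8 and 39.2 TPM in UVB WT and at 36.7, 36.5, 44.4, 33.9 and 30.8 TPM in UVB P1.hMR rats, and its difference was 0.33 without UVB WT rat 2, 0.88 without UVB WT rat 3 and -0.07 without UVB WT rats 1 and 2. Dgat2 was at 346.3, 258.7 and 266.7 TPM in UVB WT and at 223.3 to 268.7 TPM in UVB P1.hMR rats, and its difference was -0.23 without UVB WT rat 1. The 12 meibocyte markers had a median of 0.088, and 11 of them had a 95% interval within 1 log2 unit of 0. Among 20 cholesterol synthesis genes, all with intervals within 1 log2 unit, the reductase Dhcr7 (-0.34) had a smaller response in P1.hMR rats at p under 0.05.

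Immune genes were examined by cell type, beside shares of 2.56% larger and 4.36% smaller at p under 0.05 over all tested genes. Of 8 mast cell genes, Cpa3 (0.60) and Tpsb2 (0.59), both proteases of mast cell granules, had larger responses in P1.hMR rats at p under 0.05, and Tpsab1, Kit and Hdc differed by 0.41, -0.24 and -0.13. Without UVB WT rat 1, the difference of Tpsb2 was 0.37. Cpa3 was at 3.28, 3.37 and 5.6 TPM in UVB WT and at 6.0, 5.82, 6.50, 10.3 and 5.89 TPM in UVB P1.hMR rats, against 1.38 to 3.13 TPM in controls. The summed mast cell level overlapped, with 48.4 to 59.6 TPM in UVB WT and 47.9 to 82.5 TPM in UVB P1.hMR rats. Among 31 chemokine and receptor genes, 2 had smaller responses at p under 0.05, Ccr10 (-0.44) and Ccl6 (-0.39), and the median was 0.043. None of 28 macrophage and dendritic cell genes had p under 0.05 in limma (median 0.079), nor did any of 4 B cell genes. Of 10 genes on the MHC class II list, 2 were in the data, Ciita and Cd74. Neither encodes a class II chain, and neither had p under 0.05 in limma. Of 33 interferon-stimulated genes, Ifi27 (-0.70) was the 1 with p under 0.05.

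Proliferation genes had narrow intervals. All 44 mitosis and DNA replication genes tested had 95% intervals within 1 log2 unit of 0, with 22 positive and 22 negative and a median of 0.029. Ccne1, the cyclin that drives entry into S phase, was at 8.57, 8.01 and 8.97 TPM in UVB WT and at 9.93, 8.46, 10.3, 10.5 and 11.4 TPM in UVB P1.hMR rats, against 3.74 to 5.94 TPM in controls, and its difference was 0.42 (95% interval 0.12 to 0.73). The mitotic kinase Aurka differed by 0.21. Among 25 p53 targets and cell cycle inhibitors, Casp4, an inflammatory caspase (0.35), and Ccng1 (0.27) had larger and Cdkn1c, a cyclin-dependent kinase inhibitor (-0.54), a smaller response at p under 0.05. Among 26 genes of NRF2 oxidative defence, Mt2A and Nfe2l2 itself (0.19) were larger and Sod1, the cytosolic superoxide dismutase (-0.27), was smaller. Sod1 was at 730.6, 824.1 and 668.9 TPM in UVB WT and at 631.1 to 678.8 TPM in UVB P1.hMR rats, with UVB WT rat 3 again inside the P1.hMR range.

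Most genes of the stroma had negative differences, while 45.0% of all tested genes were positive. Of 44 collagen and matrix genes, 35 were negative with a median of -0.090, and Col15a1, a collagen of basement membrane zones (-0.38), and Col7a1, the collagen of anchoring fibrils (-0.28), had p under 0.05. Without UVB WT rat 1, Col15a1 differed by -0.24. Col1a1 and Col3a1 differed by -0.35 and -0.33 with unadjusted limma p of 0.242 and 0.171. Of 15 endothelial genes, 12 were negative with a median of -0.15, and none had p under 0.05. Of 38 oxidative phosphorylation genes, 32 were negative and 37 of the 38 intervals lay within 1 log2 unit of 0. Across the settings tried, the median ran from -0.23 to -0.015 for collagen and matrix genes and from -0.20 to -0.071 for endothelial genes. For oxidative phosphorylation it ran from -0.10 to 0.0027, so its sign was not stable.

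The remaining lists gave few members beyond the threshold. Among 14 neuropeptide and neurotransmitter receptor genes, the adrenergic receptor Adra1a (-0.49) and the GABA receptor subunit Gabrp (-0.40) had smaller responses in P1.hMR rats at p under 0.05. Among 18 circadian clock genes, Dbp (-0.52) and Bhlhe40 (-0.25) were smaller and Clock (0.17) was larger. Dbp was at 67.5, 66.2 and 49.1 TPM in UVB WT and at 39.2 to 55.1 TPM in UVB P1.hMR rats. Of 24 ion channels, pumps and aquaporins, Scnn1a and the chloride channel accessory gene Clca2 (0.39) were larger. None of the 29 junction genes of the list, which does not hold Cldn17, or of 18 immediate early genes and 21 skeletal muscle genes had p under 0.05 in limma. The summed skeletal muscle level overlapped between all groups, from 2992 to 6279 TPM per rat.

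The 27 tested genes that the study itself named for genotype under UVB were chosen on these samples, so their direction is not independent evidence. Of them, 19 were positive with a median of 0.15, while 45.0% of all tested genes were positive, and Casp4, Sprr3 and Elovl7 had p under 0.05. Their summed level, which is weighted towards abundant members, was 4540 to 5237 TPM in UVB WT and 5320 to 6332 TPM in UVB P1.hMR rats, without overlap. Gene by gene, the responses of single UVB rats were separated upwards at 1 of the 27, against 4.07% of all tested genes.

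**Figure D5:**
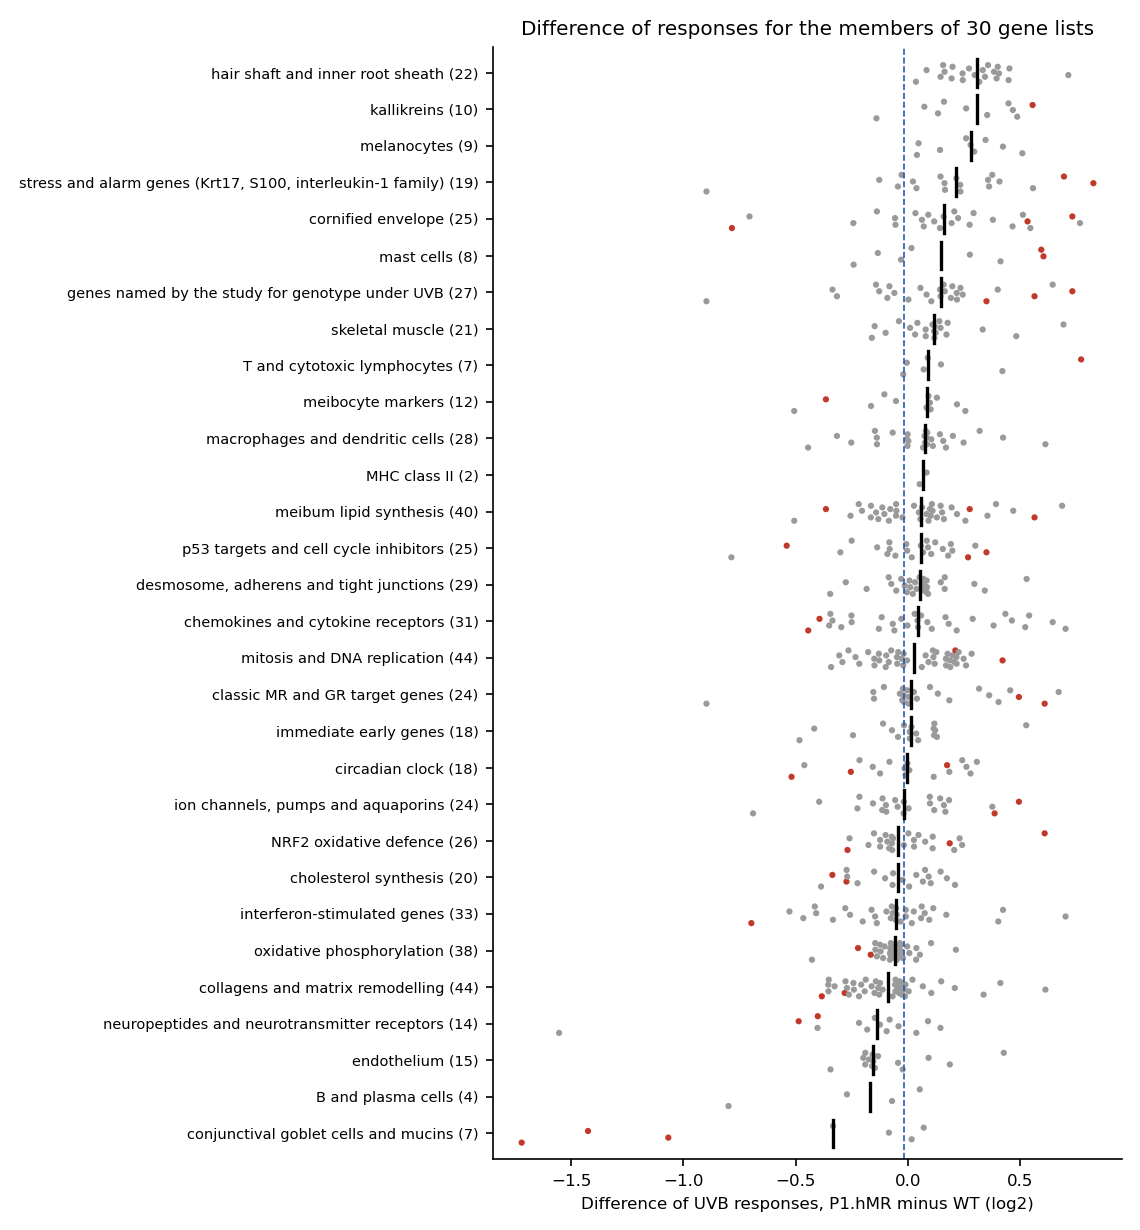
Difference of UVB responses, P1.hMR minus WT on the log2 scale (x axis), for the tested members of 30 gene lists (rows, with the number tested). Each point is a gene, red where its unadjusted limma p was under 0.05, the black bar is the median of the list and the dashed line the median of all tested genes at -0.017. Hair shaft and melanocyte genes lie wholly to the right of 0.

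Upstream sequences are shown for the 4 named genes whose 250 bases before the start site hold a single arm of the element that MR and its relatives bind (AGAACA, or TGTTCT on the other strand, in capitals), which was searched on both strands in RefSeq promoters of the GRCr8 assembly. Ccne1 and Clca2 had larger responses in P1.hMR rats, with differences of 0.42 and 0.39, and Dnajb3 and Bhlhe40 smaller ones, with differences of -0.60 and -0.25.
Ccne1 (chr1:99927910-99928159, minus strand): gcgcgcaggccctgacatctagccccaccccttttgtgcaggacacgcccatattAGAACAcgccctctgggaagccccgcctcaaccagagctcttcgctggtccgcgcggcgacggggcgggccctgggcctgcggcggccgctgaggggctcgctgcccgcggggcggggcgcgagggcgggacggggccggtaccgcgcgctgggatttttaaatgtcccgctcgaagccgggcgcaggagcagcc
Clca2 (chr2:236682459-236682708, minus strand): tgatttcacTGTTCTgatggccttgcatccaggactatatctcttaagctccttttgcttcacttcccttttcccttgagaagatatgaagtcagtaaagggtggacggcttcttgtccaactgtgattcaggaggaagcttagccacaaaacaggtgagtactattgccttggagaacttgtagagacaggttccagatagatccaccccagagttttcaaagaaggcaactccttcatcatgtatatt
Dnajb3 (chr9:96244359-96244608, minus strand): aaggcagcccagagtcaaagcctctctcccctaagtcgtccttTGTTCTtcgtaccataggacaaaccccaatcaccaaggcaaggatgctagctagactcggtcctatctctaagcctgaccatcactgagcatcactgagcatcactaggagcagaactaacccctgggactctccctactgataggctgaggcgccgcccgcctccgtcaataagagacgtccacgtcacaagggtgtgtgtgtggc
Bhlhe40 (chr4:143174200-143174449, plus strand): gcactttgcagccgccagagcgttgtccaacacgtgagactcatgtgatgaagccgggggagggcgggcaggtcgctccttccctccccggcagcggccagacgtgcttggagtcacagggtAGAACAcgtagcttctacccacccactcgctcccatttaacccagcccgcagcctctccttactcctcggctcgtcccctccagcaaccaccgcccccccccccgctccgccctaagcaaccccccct
The arm began at base -195 in Ccne1, -241 in Clca2, -207 in Dnajb3 and -128 in Bhlhe40, counted from the start site. It was present in 5509 of 27457 RefSeq promoters (20.1%) over 250 bases before and 50 after the start, and the full element, both arms around 3 free letters, in 2. Among the tested genes, 10248 (78.2%) were matched to a promoter and 1280 of these (12.5%) held the arm. Of the 74 named genes, 51 were matched to a promoter, too few for a share over the named genes. A match describes letters of the sequence and not a bound site, and the files behind the levels used another assembly, rn7.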

How the data were processed

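RNA from the MG of 17 rats was sequenced, with 1 deposited column per rat, and rats were grouped by their deposited labels. Per the methods, the authors ran FastQC on the reads, STAR for alignment to the rn7 genome and RSEM for quantification. The submitters' processing notes also name Trimmomatic, DRAGEN and Picard, so the tools behind the deposited TPM are not settled. The authors deposited TPM with decimal commas, which were read as decimal points. TPM keeps no counts, so no counting error was computed.

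Values were analysed as log2(TPM + 1), with a pseudocount of 1 that understates the change of low genes. Genes at 1 TPM or more in at least 3 rats entered 1 limma 3.58.1 model (R 4.3.3) that gave each group its mean and let the variance follow expression level, and the difference of the 2 UVB responses was tested as 1 contrast (two-sided, Benjamini-Hochberg adjustment over 13105 genes). A gene was called at an adjusted p under 0.05 and an absolute log2 difference of at least 0.5. Single genes were also tested by permuting genotype within each treatment over all 7056 arrangements. This permutation test assumes no effect of genotype in either treatment, which is a stricter assumption than equal UVB responses. The model was checked on simulated data. The remaining steps used Python 3.11.15 (pandas 2.3.3, numpy 2.4.6, scipy 1.17.1), and matplotlib 3.10.9 drew the figures.

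The members and the 30 gene lists were chosen with earlier results of these data known. Named genes were the 10 with the smallest limma p in each direction, the 5 with the largest difference in each direction among genes with p under 0.05, up to 2 members with p under 0.05 per list, the receptors and S100a9, and the 5 genes with the smallest p among those with p under 0.05 that responded in 1 genotype and had the other sign in the other. Another 8 genes, those called without 1 rat and Pigr among them, and other list members in the text were named after their values were seen. A gene under this rule is not reported here. The p-values measure the spread between these samples. Alternatives were a pseudocount of 0.1, no filter or a mean of at least 5 TPM, quantile and median-of-ratios scaling, TPM without muscle and hair shaft genes, a replicate block, sample weights, no variance trend, muscle or hair shaft genes as a covariate, and each rat left out in turn. Leaving out UVB WT rats 1 and 2, or Control P1.hMR rats 4 and 5, was chosen after seeing the data.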

Additional observations from a re-analysis of the deposited data

Results flagged for a closer look

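In groups of 4 or 5 rats, 12 values of named genes lay far from the rest of their group by Dixon's test, out of 219 groups tested. Chance gives such a value in about 1 in 20 groups. The groups of 3 UVB WT rats were too small to be tested.

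In Control WT rats, Cd8a was at 0.18 TPM in rat 1 (nearest rat 0.33 TPM), Tpsb2 at 2.65 TPM in rat 1 (nearest 1.40), Col15a1 at 19.6 TPM in rat 1 (nearest 24.8), Atp5f1e at 9.13 TPM in rat 3 (nearest 21.5), Spdef at 0.94 TPM in rat 3 (nearest 0.66) and Lin37 at 25.4 TPM in rat 4 (nearest 13.2). For Lin37, all rats of the other groups lay nearer to rat 4 than to Control WT rats 1 to 3.

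In Control P1.hMR rats, Abca12 was at 5.78 TPM in rat 5 (nearest 7.28), Tpsb2 at 2.13 TPM in rat 2 (nearest 1.43) and Uqcrc1 at 327.2 TPM in rat 1 (nearest 307.3). In UVB P1.hMR rats, LOC102555453 was at 38.2 TPM in rat 2 (nearest 247.8), Ccl6 at 34.8 TPM in rat 5 (nearest 47.6) and Cpa3 at 10.3 TPM in rat 4 (nearest 6.50).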

How the results depend on the processing

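No gene was called in any setting with all 17 rats, and 606 to 1113 genes had a limma p under 0.05. Leaving out 1 rat at a time gave 0 to 8 called genes, 615 to 1426 genes with p under 0.05, of which 236 to 576 had larger and 343 to 850 smaller responses in P1.hMR rats, and 12141 to 12392 genes with a 95% interval within 1 log2 unit. Without Control WT rat 4, 1 gene was called, and without UVB WT rat 3, 8. Sample weights gave 366 genes with smaller responses against 572. Without UVB WT rats 1 and 2, 328 genes had p under 0.05, 133 larger and 195 smaller, and without Control P1.hMR rats 4 and 5, 320 were smaller. A replicate block gave 0 called genes and 1016 with p under 0.05, 344 larger and 672 smaller, and it changed no call. Rats that shared a number correlated between -0.187 and 0.235, so the numbers were not taken to pair them. Of the 66 genes named by rule, 65 kept their direction in every setting, and Elovl7 turned to -0.0695 without UVB WT rats 1 and 2, of which the cause was not tested. Pla2r1, Sytl1, Slc15a1 and Chmp6 had an adjusted p under 0.05 without UVB WT rat 3, Sytl1 and Chmp6 with a difference under 0.5 in size. List medians moved beyond the spread between rats in 25 cases and stayed within it in 873. With 3 UVB WT rats and a median 95% interval of 0.27 to either side, small differences could be missed.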

Other observations

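The sign of the genotype gap was compared with and without UVB. Among the 335 genes with larger responses in P1.hMR rats at p under 0.05, the P1.hMR and WT means differed in opposite directions with and without UVB at 305 (91.0%), and at 92.0% of the 572 genes with smaller responses, against 48.4% of all tested genes. The distance between genotypes was larger under UVB than without it at 234 (69.9%) and 448 (78.3%) of them, against 60.7% of all genes. Both shares are in part set by the selection on the difference itself, since a difference of responses is also a difference of genotype gaps. At Tmem205, for example, P1.hMR minus WT was 0.22 without UVB and -0.17 with UVB on the log2 scale, at Slurp1 -0.37 and 0.47, and at Camta1 0.34 and -0.50.

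Pigr, the receptor that carries IgA across epithelia, was at 7.21 and 10.9 TPM in Control P1.hMR rats 4 and 5, the rats highest for Gp2 and Spdef, and at 2.88 to 5.30 TPM in the other controls. It was at 2.87, 1.27 and 1.06 TPM in UVB WT and at 0.77 to 3.20 TPM in UVB P1.hMR rats, a difference of -0.80 (limma adjusted p = 0.758).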
